A study of Mus musculus with 11 samples.

Results

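The synovial membrane of high-fat-fed DBA/1 mice with collagen-induced arthritis (CIA) was compared with that of high-fat-fed sham mice. The comparison rests on 5 of the 11 RNA sequencing libraries of the series, 3 labelled CIA (a, b and c) and 2 labelled sham (a and b), chosen by their diet and disease labels, and covers 14892 genes with enough counts to test. DBA/1 is an inbred strain prone to arthritis after immunisation with type II collagen. All 11 samples share this strain, no engineered allele is labelled, and no age, sex, diet duration or immunisation schedule was given in the sources used here. The series set both diets side by side to ask whether obesity bears on arthritis, and its other 6 libraries are 3 CIA and 3 sham on a regular diet. The growth notes give a regular diet for all 11 samples, those labelled high-fat included, so the diet groups follow the treatment labels. Whether each library is its own mouse is not labelled, and the p-values reflect the variation among these libraries, part of which may be technical.

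The synovial membrane has a lining of macrophages and of fibroblasts that make the joint lubricant lubricin, over a sublining of vessels, fibroblasts and fat cells. In inflammatory arthritis leukocytes enter through activated vessels, and fibroblasts and macrophages secrete cytokines, chemokines and proteases that act on cartilage and bone. The fat of the joint stores lipid and secretes hormones such as leptin.

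Total counts were 15873010 to 17631167 in the 5 libraries. Defining genes of the synovium were present in all 5. Prg4, which encodes lubricin, stood at 8275 to 20707 CPM (counts scaled to library size), and the sublining fibroblast genes Thy1 and Pdgfra at 41.2 to 136 and 179 to 414 CPM. The sublining gene Pi16 stood at 119 to 239 CPM. Dpt, also of the sublining, stood at 303, 275 and 756 CPM in CIA a, b and c and at 1218 and 1352 CPM in sham. Of the other lining genes, Htra4 stood at 40 CPM in CIA a against 303 to 729 CPM in the other 4 libraries and Clic5 at 22.5 against 256 to 698 CPM, while Has1, at 83 CPM in CIA a, lay within the 35.6 to 132 CPM of the others. Other tissue was present as well. The 19 erythroid and marrow precursor genes tested summed to 153, 3989 and 960 CPM in CIA a, b and c and to 7251 and 1326 CPM in sham a and b, the 22 muscle genes to 68.6 to 127 CPM in CIA and 182 and 394 CPM in sham. Of 18 keratinocyte genes 12 were too low to test, and the other 6 summed to 22.1 to 41.8 CPM in every library. On log2 CPM, the CIA libraries correlated across genes at r = 0.916 to 0.964 with each other, the sham libraries at 0.968, and a CIA with a sham library at 0.836 to 0.940.

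CIA and sham differed in 1610 genes at a Benjamini-Hochberg adjusted p under 0.05 in edgeR's quasi-likelihood test, which is the call and the adjusted p used throughout. Of all genes tested 753 were called higher in CIA (5.06%) and 857 lower (5.75%). The median absolute log2 fold change was 1.31 among the genes that rose and 1.23 among those that fell, and 505 and 577 of them changed by more than 1 on that scale. Every called gene had 3 CIA libraries on one side of both sham libraries, a pattern that 4091 genes (27.5%) showed upward and 4126 (27.7%) downward whether called or not. Before adjustment, 4588 genes had a p under 0.05. The count was 0 without sham a and 0 without sham b, where 3166 and 2255 genes had an unadjusted p under 0.05, so each call needed both sham libraries. It was 1046, 355 and 1074 without CIA a, b or c. In the authors' deposited table a q-value under 0.05 is given for 3488 genes, 1973 of them higher, and these hold 1580 of the 1610 (98.1% of the edgeR calls and 45.3% of the deposited ones), all in the same direction.

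The called genes with the smallest p-values are given first. Values by library are given in the order a, b, c for CIA and a, b for sham, and a value ± another is a log2 fold change ± SE. Podn, which encodes the small leucine-rich matrix protein podocan, had 48.1, 54.1 and 60.4 CPM in CIA and 182 and 196 CPM in sham (-1.80 ± 0.16, adjusted p = 0.00934). All 3 CIA libraries thus stood within 48.1 to 60.4 CPM, far below both sham libraries. Serpina3i, of the acute-phase family of serine protease inhibitors, had 47.1, 25.4 and 26.4 CPM against 1.92 and 1.05 CPM (4.46 ± 0.46, adjusted p = 0.00962). Its family holds near-identical genes, so how reads were split among them is uncertain. Grb14, an adaptor that binds and inhibits the insulin receptor, fell from 116 and 117 CPM in sham to 17.3, 13.4 and 25.4 CPM in CIA (-2.64 ± 0.30, adjusted p = 0.0127). The transcriptional repressor Bach1, known for holding down haem oxygenase, rose from 47.0 and 49.9 CPM to 140, 154 and 118 CPM (1.5 ± 0.19, adjusted p = 0.0152). Slc12a2, the sodium-potassium-chloride cotransporter, rose (1.18 ± 0.15, adjusted p = 0.0152), as did Ttc39b (1.65 ± 0.19, adjusted p = 0.0127). Kctd2 (-1.44 ± 0.16), the synaptic vesicle gene Syp (-2.46 ± 0.29) and Echdc2 (-1.78 ± 0.21) fell, each at an adjusted p of 0.0127.

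Genes of activated myeloid cells that were close to absent in sham were among the widest rises. Acod1, which makes itaconate in activated macrophages, had 270, 3469 and 112 counts in CIA and 1 and 0 counts in sham (adjusted p = 0.0386). Arg1, the arginase of myeloid cells, had 211, 2009 and 437 counts against 1 and 4 counts (adjusted p = 0.0271). Both were highest in CIA b, at 209 and 121 CPM, and no sham library came near any CIA library. Clec4e, a lectin that senses mycobacterial and dead-cell lipids, had 57.7, 163 and 18.9 CPM against 1.66 and 0.117 CPM (6.46 ± 1.53, adjusted p = 0.0329). Sirpb1c, a signal-regulatory receptor gene with close paralogs, had 76.9, 42.3 and 22.8 CPM against 2.24 and 0.701 CPM (4.99 ± 1.17, adjusted p = 0.0319). Outside the myeloid genes, Agtr2, an angiotensin receptor, rose to 1.98, 20.1 and 6.31 CPM from 0.214 and 0.350 CPM (5.04 ± 1.32, adjusted p = 0.0412). In total 13 genes called higher had fewer than 3 counts in each sham library, so that the size of their rise is not fixed by these data.

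Genes known from fat and nerve were among the widest falls. Nnat, which encodes the membrane proteolipid neuronatin of nerve and fat, had 24.9, 40.7 and 62.0 CPM in CIA and 795 and 1029 CPM in sham (-4.42 ± 0.78, adjusted p = 0.0188). Sncg, which encodes gamma-synuclein, a protein of fat cells and sensory neurons, had 79.2, 148 and 250 CPM against 1218 and 1583 CPM (-3.14 ± 0.55, adjusted p = 0.0185). In both genes CIA a was lowest and CIA c highest of the CIA libraries, and neither came near sham. Mapt, the microtubule protein tau, fell from 42.2 and 49.7 CPM to 2.39, 5.55 and 6.31 CPM (-3.27 ± 0.57, adjusted p = 0.0185). Sfrp5, a secreted Wnt antagonist made by fat, fell from 25.7 and 34.7 CPM to 1.80, 3.07 and 3.60 CPM (-3.42 ± 0.46, adjusted p = 0.0155). Prr32 (-5.03 ± 0.93, adjusted p = 0.0200) and the GABA and taurine transporter Slc6a13 (-3.66 ± 0.59, adjusted p = 0.0185) fell as far. In whole tissue, fewer cells of a type and less RNA per cell cannot be told apart, and that holds for each change given here.

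In CPM, the 6 largest gains among called genes named were in matrix, protease, leukocyte and cytoskeletal genes, and several of the 6 largest losses were in fat genes. Col5a2, a chain of the collagen V that starts fibrils, gained most, with 2985, 1785 and 2118 CPM in CIA and 622 CPM in each sham library (1.88 ± 0.46, adjusted p = 0.0340). The other 5 were the collagen crosslinker Lox, the bone-resorbing cathepsin Ctsk, the microfibril gene Fbn1, the leukocyte actin bundler Lcp1 and the cytoskeletal linker Msn. The losses were those of Ifi27l2a, Sncg, Adipoq, which encodes adiponectin, the glutamine transporter Slc1a5, the hormone-sensitive lipase Lipe and Nnat. Slc1a5 had 285, 423 and 522 CPM in CIA and 1358 and 1658 CPM in sham (-1.88 ± 0.41, adjusted p = 0.0276). Ifi27l2a, which belongs to an interferon-inducible family, had 84.8, 374 and 408 CPM against 1570 and 1936 CPM (-2.60 ± 0.69, adjusted p = 0.0423). No CIA library reached the lower of the sham values in either gene.

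Gene lists of 64 pathways, cell types and sample properties were then described by the number of their members called, beside the 5.06% and 5.75% of all genes, and by their median log2 fold change, beside 0.02 for all genes tested. The plot of list medians by library shows collagens, chemokine receptors and the IL-1 family above the sham mean, and lipolysis, fatty acid oxidation and oxidative phosphorylation below it, in all 3 CIA libraries. Other lists of the same areas went the other way, such as resident macrophage markers, at -1.17, -0.93 and -0.30 in CIA a, b and c.

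**Figure D1:**
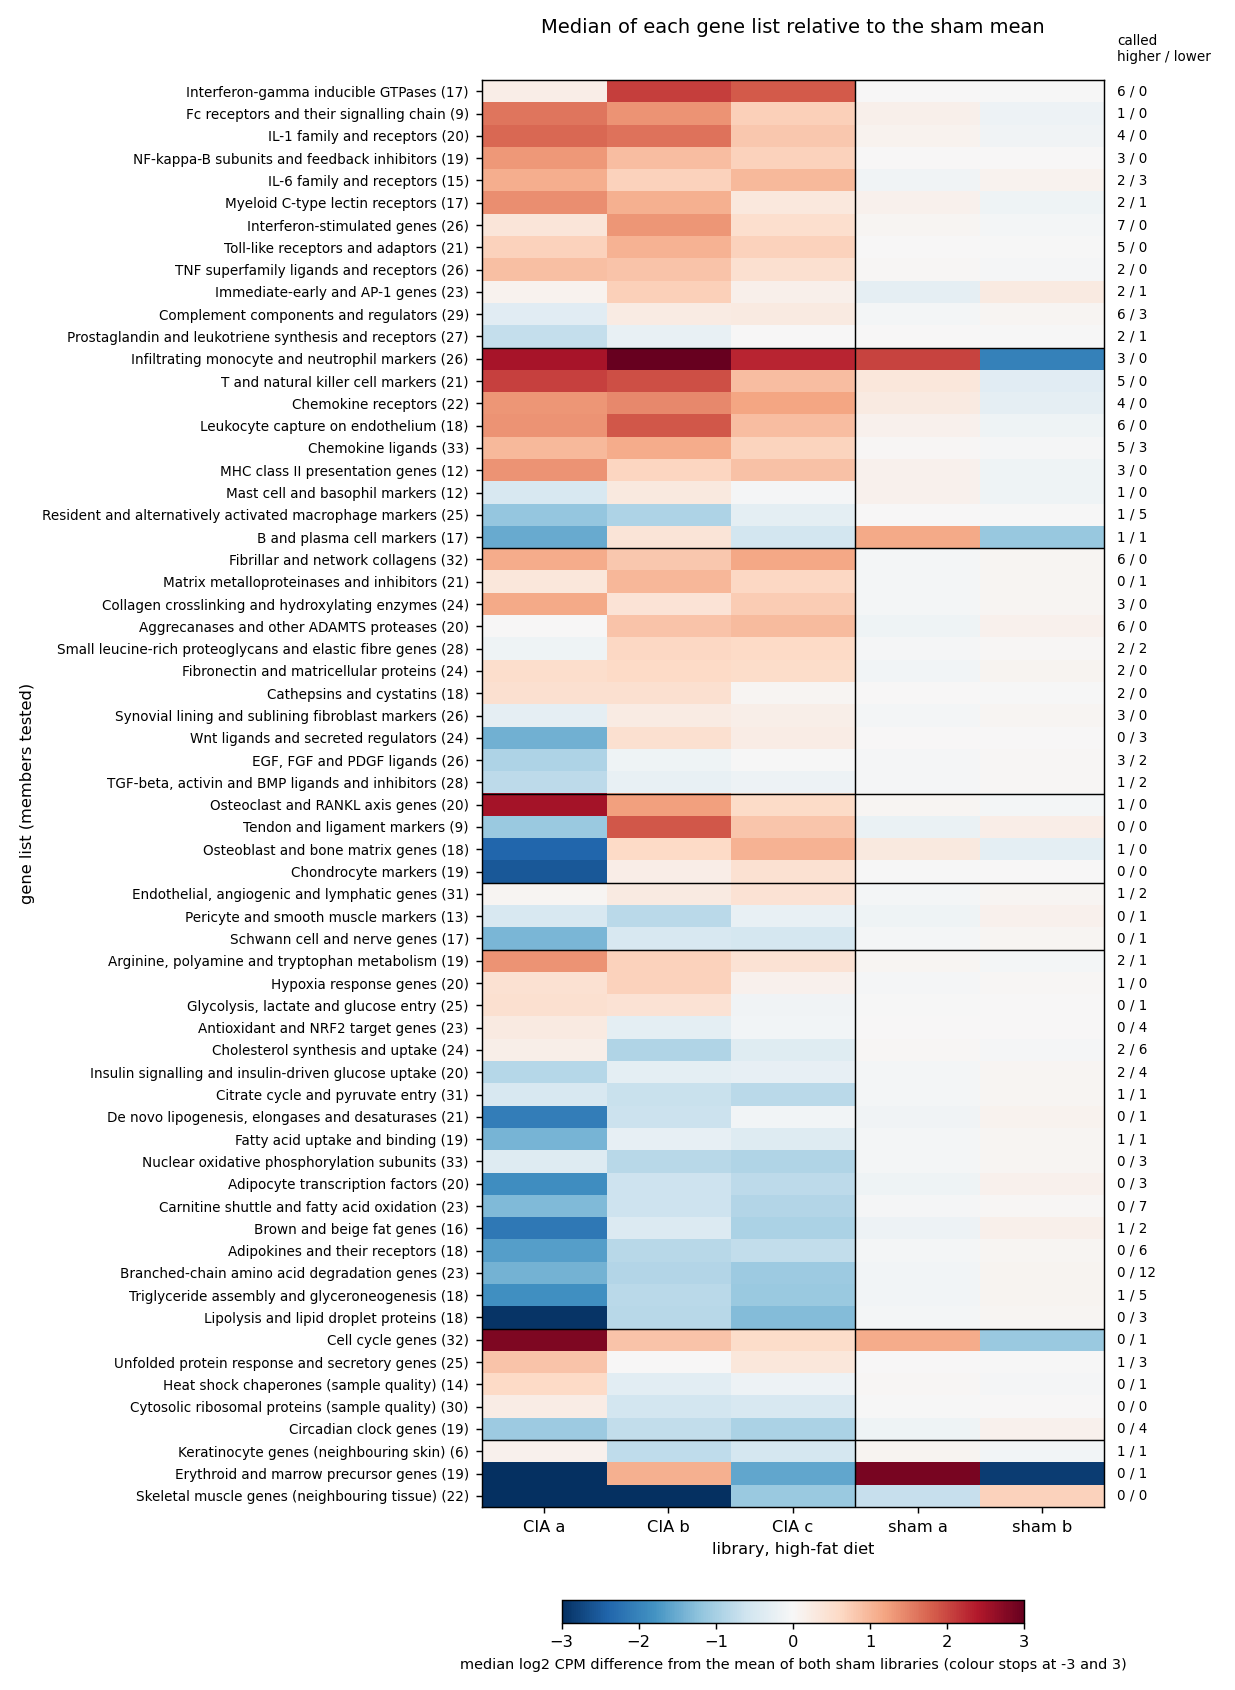
Median log2 CPM of each gene list in each high-fat library, as a difference from the mean of both sham libraries (columns are libraries, red is higher and blue lower, the numbers at the right are members called higher and lower). Branched-chain amino acid degradation, with 12 of 23 members called lower, was below sham in all 3 CIA libraries, while the erythroid and marrow list separated the sham libraries from each other, at 2.85 and -2.85.

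Genes by which vessels catch leukocytes were among those that rose. Of 18 tested genes of leukocyte capture on endothelium 6 were called higher and 0 lower, with a median of 1.39. Selp, the selectin that endothelium and platelets release from stores, had 185, 104 and 167 CPM in CIA and 10.1 and 6.95 CPM in sham (4.16 ± 0.72, adjusted p = 0.0185). Sele, the endothelial selectin made upon cytokine stimulation, had 50, 53.3 and 52.0 CPM against 4.06 and 2.39 CPM (4 ± 0.98, adjusted p = 0.0351). The 3 CIA libraries were nearly equal for Sele, and each CIA library was far above both sham libraries for both selectins. On the leukocyte side, the selectin ligand Selplg (2.09 ± 0.56, adjusted p = 0.0434) and the integrin chains Itgal (3.19 ± 0.86, adjusted p = 0.0437), Itgb2 (1.92 ± 0.47, adjusted p = 0.0352) and Itga4 (1.41 ± 0.40, adjusted p = 0.0497) rose. Itgal had 67.4, 111 and 25.8 CPM in CIA and 12.6 and 2.34 CPM in sham, so that CIA c was closest to sham a.

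Chemokine ligands moved both ways. Of 33 tested 5 were called higher and 3 lower, with a median of 1.13 that was 2.04 without sham a. Ccl8, a monocyte attractant, had 50.5, 38.6 and 32.7 CPM in CIA and 2.14 and 2.04 CPM in sham (4.27 ± 0.72, adjusted p = 0.0185). Ccl2, which draws monocytes through CCR2, had 218, 15.3 and 107 CPM against 5.02 and 3.74 CPM (4.69 ± 1.26, adjusted p = 0.0437). The CIA libraries agreed on Ccl8 and spread widely on Ccl2, with CIA b lowest. Ccl4, a chemokine of activated macrophages, had 32, 385 and 26 counts in CIA and 3 and 1 counts in sham (adjusted p = 0.0356). The ligands that fell were Ccl24, an eotaxin of alternatively activated macrophages (-3.75 ± 0.81, adjusted p = 0.0264), Ccl27a (-1.65 ± 0.34, adjusted p = 0.0241) and Pf4, of platelets and resident macrophages (-1.6 ± 0.32, adjusted p = 0.0226).

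Of 22 chemokine receptors 4 rose and 0 fell, with a median of 1.56. Ccr2, the receptor of Ccl2 on monocytes, had 517, 276 and 304 CPM in CIA and 70.8 and 38.5 CPM in sham (2.74 ± 0.53, adjusted p = 0.0219). Ccr1, of monocytes and neutrophils, had 110, 160 and 52.7 CPM against 27.8 and 16.9 CPM (2.27 ± 0.50, adjusted p = 0.0279). Cxcr6, of tissue T and natural killer cells, had 8.21, 6.63 and 5.71 CPM against 0.908 and 0.993 CPM (2.84 ± 0.48, adjusted p = 0.0185). In all 3 genes each CIA library was above both sham libraries.

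Receptors, sensors and transducers of cytokine pathways were among the genes that rose. All 20 tested genes of the IL-1 family and its sensors had a log2 fold change above 0 (median 1.30), and 4 were called. These were the receptor accessory chain Il1rap, with 47.0, 65.3 and 25.2 CPM in CIA and 9.67 and 12.1 CPM in sham (2.07 ± 0.35, adjusted p = 0.0185), the inflammasome sensors Nlrp3 (4.22 ± 1.03, adjusted p = 0.0342) and Nlrc4 (2.13 ± 0.54, adjusted p = 0.0380), and Il18bp, a secreted inhibitor of IL-18 (1.15 ± 0.32, adjusted p = 0.0457). Il1b itself had 174, 323 and 47.7 CPM against 3.26 and 1.34 CPM, with an adjusted p of 0.0616. The groups did not overlap for Il1b, and CIA c was lowest of the CIA libraries.

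In the IL-6 family 2 of 15 genes rose and 3 fell. The shared receptor chain Il6st had 432, 627 and 616 CPM in CIA and 243 and 282 CPM in sham (1.09 ± 0.26, adjusted p = 0.0339), and the transcription factor Stat3, which acts downstream of it, rose by 0.77 ± 0.19 (adjusted p = 0.0339). Il6 had 903, 59 and 1708 counts in CIA and 1 and 2 counts in sham, with an adjusted p of 0.0508. CIA b, which was high for Il1b, thus held the fewest Il6 counts of the CIA libraries. The cytokine gene Ctf1 (-1.93 ± 0.41, adjusted p = 0.0257) and the receptor chains Cntfr (-2.12 ± 0.52, adjusted p = 0.0356) and Il11ra1 (-1.03 ± 0.27, adjusted p = 0.0396) fell.

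Of 26 tested TNF superfamily ligands and receptors 2 were called higher and 0 lower, beside 5.06% and 5.75% of all genes. Both were receptors, Tnfrsf1b, TNF receptor 2 (2.04 ± 0.44, adjusted p = 0.0262), and the T cell costimulator Tnfrsf9 (4.27 ± 1.15, adjusted p = 0.0437). Tnf had 3.67, 17.1 and 2.82 CPM in CIA and 2.62 and 1.28 CPM in sham, with an adjusted p of 0.163. CIA a and c were close to sham a for this gene, and CIA b was apart. Of 19 NF-kappa-B subunits and feedback inhibitors 3 rose and 0 fell (median 1.10), namely the subunits Rel (1.76 ± 0.38, adjusted p = 0.0262) and Nfkb1 (0.86 ± 0.20, adjusted p = 0.0319) and the inhibitor Tnfaip3 (1.41 ± 0.35, adjusted p = 0.0351). Among 23 immediate-early and AP-1 genes 2 were called higher and 1 lower, beside the same shares of all genes. Fosl2 (2.06 ± 0.52, adjusted p = 0.0370) and Maff (0.99 ± 0.27, adjusted p = 0.0470) rose and Jund fell (-0.92 ± 0.22, adjusted p = 0.0339).

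Pattern recognition genes were called as well. Of 21 Toll-like receptors and adaptors 5 were called higher and 0 lower (median 0.81). Tlr13, a sensor of bacterial ribosomal RNA, had 93.2, 127 and 56.2 CPM in CIA and 19.8 and 16.0 CPM in sham (2.36 ± 0.49, adjusted p = 0.0246). Tlr1 (2.79 ± 0.58, adjusted p = 0.0242), Tlr8 (1.71 ± 0.33, adjusted p = 0.0224), the flagellin receptor Tlr5 (1.42 ± 0.38, adjusted p = 0.0433) and the adaptor Tirap (1.28 ± 0.24, adjusted p = 0.0208) rose too. Of 17 myeloid lectin receptors Clec4e and the beta-glucan receptor Clec7a (2.90 ± 0.66, adjusted p = 0.0304) rose, and Mgl2, of alternatively activated macrophages, fell (-2.71 ± 0.67, adjusted p = 0.0357). Of 9 tested genes of Fc receptors and their chain only Fcgr4 was called, with 7.27, 20.2 and 8.59 CPM against 1.34 and 0.350 CPM (3.81 ± 0.68, adjusted p = 0.0194).

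Complement genes went both ways, with 6 of 29 called higher, 3 lower and a median of 0. The receptors for the C3a and C5a fragments were among the genes that rose. C3ar1 had 104, 109 and 98.4 CPM in CIA and 38.2 and 41.1 CPM in sham (1.39 ± 0.26, adjusted p = 0.0210), C5ar1 rose by 2.40 ± 0.52 (adjusted p = 0.0269) and C5ar2 by 4.24 ± 0.91 (adjusted p = 0.0263). Itgam, which pairs with Itgb2 as complement receptor 3, had 265, 389 and 155 CPM against 74.5 and 43.3 CPM (2.19 ± 0.47, adjusted p = 0.0262). Cd59a, an inhibitor of the membrane attack complex, had 14.8, 26.9 and 29.8 CPM against 71.8 and 92.6 CPM (-1.78 ± 0.35, adjusted p = 0.0226), and the ficolin Fcna fell (-2.27 ± 0.45, adjusted p = 0.0224). Each CIA library was on the same side of both sham libraries in these genes. In the synthesis of lipid mediators, the arachidonate-releasing Pla2g4a (1.61 ± 0.44, adjusted p = 0.0463) and the inducible cyclooxygenase Ptgs2 (5.04 ± 1.24, adjusted p = 0.0352) rose and the leukotriene C4 synthase Ltc4s fell (-1.98 ± 0.36, adjusted p = 0.0194), among 27 genes tested.

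**Figure D2:**
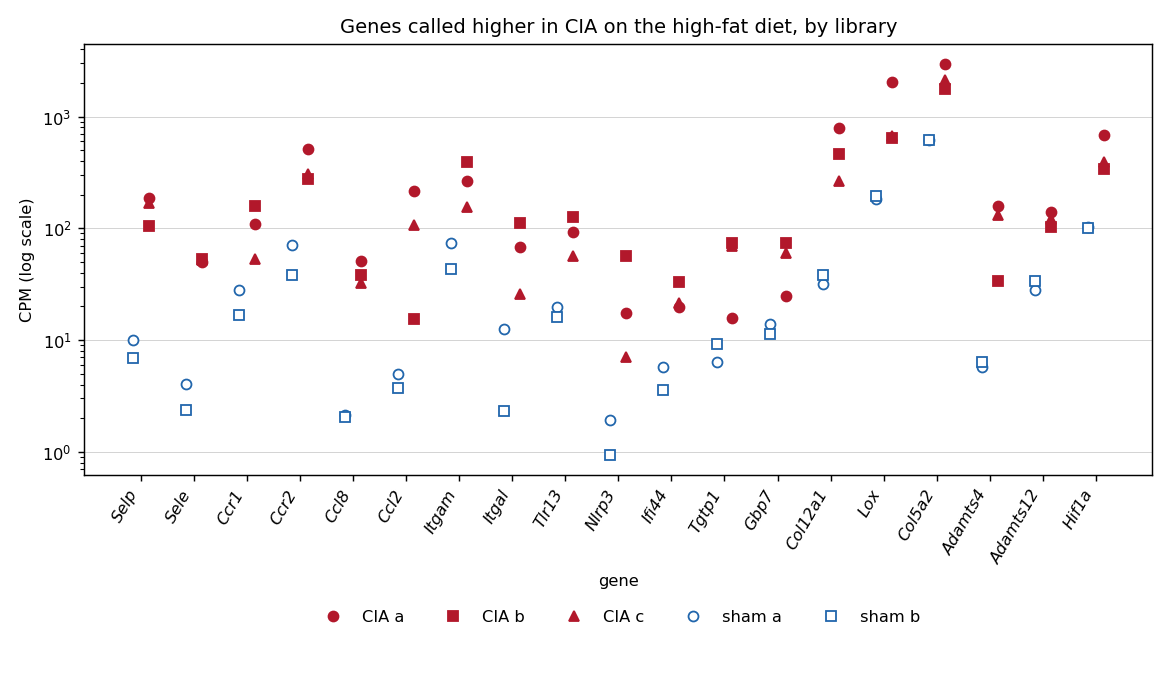
CPM on a log scale of 19 genes called higher, with the 3 CIA libraries as filled and the 2 sham libraries as open symbols. Each CIA symbol lies above both sham symbols of its gene, as for every gene called higher. CIA a, the filled circle, is lowest for Tgtp1 and Gbp7 and highest for Lox and Col12a1.

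Interferon-induced genes were unequal across the CIA libraries. Of 17 GTPases induced by interferon gamma, which guard cells against intracellular pathogens, 6 were called higher and 0 lower, all 17 had a log2 fold change above 0, and the median was 1.54. By library the median lay 0.19, 2.07 and 1.83 above the sham mean in CIA a, b and c. Tgtp1 had 15.8, 73.6 and 69.2 CPM in CIA and 6.41 and 9.28 CPM in sham (2.75 ± 0.64, adjusted p = 0.0313). Gbp3 had 41.5, 73.4 and 83.9 CPM against 27.8 and 27.4 CPM (1.26 ± 0.34, adjusted p = 0.0433), and Gbp7 had 25.0, 74.4 and 60.1 CPM against 14.0 and 11.3 CPM (2.07 ± 0.58, adjusted p = 0.0481). In each of these genes CIA a stood between sham and the other CIA libraries. Tgtp2 (2.51 ± 0.69, adjusted p = 0.0455), Iigp1 (2.68 ± 0.69, adjusted p = 0.0391) and Ifi47 (1.58 ± 0.42, adjusted p = 0.0436) rose as well. Tgtp1 and Tgtp2 are near-identical copies, so how reads were shared between them is uncertain, as it is within the Gbp and Oas families.

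Of 26 broader interferon-stimulated genes 7 were called higher and 0 lower (median 0.85, and 0.28 without CIA b). Ifi44 had 19.7, 33.2 and 21.4 CPM in CIA and 5.72 and 3.56 CPM in sham (2.41 ± 0.35, adjusted p = 0.0173). The oligoadenylate synthetases, which sense double-stranded RNA, were represented by Oas1a (1.73 ± 0.43, adjusted p = 0.0352), Oas2 (2.45 ± 0.61, adjusted p = 0.0363) and Oas3, with 10.4, 53.6 and 6.07 CPM against 1.01 and 0.350 CPM (5.07 ± 1.10, adjusted p = 0.0264). The nucleic acid sensor Zbp1 (2.41 ± 0.54, adjusted p = 0.0284) and Rtp4 (1.37 ± 0.33, adjusted p = 0.0342) rose too. CIA b was the highest library for Ifi44, Oas1a, Oas2, Oas3, Zbp1 and Rtp4.

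The promoters of the genes tested were searched for the core of the interferon-stimulated response element, GAAA and GAAA with any 2 bases between them, on both strands from 250 bases before to 50 after the start, in the RefSeq promoters of GRCm38.p6 that matched 11762 of the genes tested. The core was in 378 of these (3.21%), in 35 of 596 promoters of genes called higher (5.87%) and in 15 of 685 of genes called lower (2.19%). It was in 10 of 11 promoters of the GTPase list, among them 4 of the 5 that belong to called members, and in 12 of 21 of the interferon-stimulated list, with 2 of 4 for called members. The 250 bases before the start are shown for 5 called genes, as examples of where the core lies, with each match in capitals (TTTC runs are matches on the other strand). A match is a description of the letters and not a measured binding site.
Tgtp1 (chr11:48992247-48992496, minus strand): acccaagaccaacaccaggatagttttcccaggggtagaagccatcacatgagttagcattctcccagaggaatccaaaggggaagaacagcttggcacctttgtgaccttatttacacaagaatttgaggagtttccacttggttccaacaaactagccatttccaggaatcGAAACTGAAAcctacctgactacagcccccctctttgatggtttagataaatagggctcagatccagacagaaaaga
Gbp3 (chr3:142559794-142560043, plus strand): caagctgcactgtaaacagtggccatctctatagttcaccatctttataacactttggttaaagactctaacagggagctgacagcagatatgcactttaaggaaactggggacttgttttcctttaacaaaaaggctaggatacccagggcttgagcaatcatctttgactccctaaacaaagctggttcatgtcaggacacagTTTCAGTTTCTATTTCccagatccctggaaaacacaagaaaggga
Gbp7 (chr3:142530086-142530335, plus strand): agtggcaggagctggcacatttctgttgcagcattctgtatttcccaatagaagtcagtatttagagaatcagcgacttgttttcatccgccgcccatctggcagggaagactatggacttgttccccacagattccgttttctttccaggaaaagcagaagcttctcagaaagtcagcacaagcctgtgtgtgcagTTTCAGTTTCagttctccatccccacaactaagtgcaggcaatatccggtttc
Oas1a (chr5:120907526-120907775, minus strand): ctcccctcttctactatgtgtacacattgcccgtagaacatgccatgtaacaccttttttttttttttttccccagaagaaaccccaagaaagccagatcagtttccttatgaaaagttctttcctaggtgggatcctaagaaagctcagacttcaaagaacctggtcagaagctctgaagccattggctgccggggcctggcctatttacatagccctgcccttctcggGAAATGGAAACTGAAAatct
Oas3 (chr5:120777660-120777909, minus strand): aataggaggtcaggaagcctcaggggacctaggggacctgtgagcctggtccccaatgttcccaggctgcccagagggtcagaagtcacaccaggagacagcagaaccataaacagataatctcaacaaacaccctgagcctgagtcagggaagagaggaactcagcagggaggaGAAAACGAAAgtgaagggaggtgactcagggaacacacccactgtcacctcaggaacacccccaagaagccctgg
The matches begin 77 bases before the start in Tgtp1, 45 and 39 in Gbp3, 53 in Gbp7, 20 and 14 in Oas1a and 75 in Oas3. Those of Gbp3 overlap, as do those of Oas1a.

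Of 12 genes of antigen presentation on MHC class II 3 rose and 0 fell, and all 12 had a log2 fold change above 0 (median 1.05). Ciita, the activator that switches class II genes on, had 58.5, 40.5 and 50.9 CPM in CIA and 11.4 and 9.05 CPM in sham (2.29 ± 0.43, adjusted p = 0.0208). The class II chain H2-Aa had 577, 460 and 484 CPM against 246 and 221 CPM (1.12 ± 0.27, adjusted p = 0.0339), and Ctss, the cathepsin that trims the invariant chain, rose by 2.04 ± 0.41 (adjusted p = 0.0226). Unlike the GTPases, Ciita and H2-Aa were highest in CIA a.

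T cell and natural killer markers were low in every library, with 5 of 21 called higher, 0 lower and a median of 1.84. The T cell receptor chain gene Cd3g had 78, 57 and 59 counts in CIA and 6 and 3 in sham (adjusted p = 0.0313). The checkpoint receptors Pdcd1, with 32, 24 and 18 against 4 and 4 counts (adjusted p = 0.0315), and Ctla4, with 83, 16 and 30 against 4 and 2 counts (adjusted p = 0.0462), and Foxp3, the factor of regulatory T cells, with 41, 15 and 19 against 1 and 0 counts (adjusted p = 0.0441), rose. The IL-2 receptor chain Il2rb rose by 1.94 ± 0.41 (adjusted p = 0.0260). Summed over the list these markers reached 33.3 to 65.9 CPM in CIA and 20.7 and 9.34 CPM in sham. Of 17 B and plasma cell markers 1 rose and Tnfrsf17, a receptor of plasma cells, fell, with 0 counts in each CIA library against 16 and 11 counts (adjusted p = 0.038), at least 4.19-fold lower by a floor of 3 counts per library. Hdc, the histamine-making enzyme of mast cells, basophils and neutrophils, was the 1 called gene of 12 mast cell and basophil markers, with 64.6, 248 and 41.4 CPM against 9.88 and 3.39 CPM (4.15 ± 1.06, adjusted p = 0.0382).

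Of 26 markers of infiltrating monocytes and neutrophils 3 were called, Ccr2, Arg1 and the proteoglycan versican, Vcan, with 617, 295 and 294 CPM in CIA and 64.6 and 56.5 CPM in sham (2.73 ± 0.69, adjusted p = 0.0381). The median of 2.08 rested on which sham library was used, being 6.64 without sham a, 1.18 without sham b and 0.98 without CIA b. The neutrophil calprotectin gene S100a8 had 259, 1646 and 284 CPM in CIA and 451 and 8.99 CPM in sham (adjusted p = 0.404), and S100a9 followed it, with 613 CPM in sham a against 7.36 CPM in sham b (adjusted p = 0.386). The groups overlapped for both, because sham a stood above CIA a and c. Mpo, of marrow granulocyte precursors, had 0.407, 236 and 17.2 CPM in CIA and 173 and 0.817 CPM in sham (adjusted p = 0.992), and was high in the same libraries, sham a and CIA b, in which the erythroid and marrow list summed highest. What part marrow in the dissected tissue had in the neutrophil markers was not tested.

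Of 25 markers of resident and alternatively activated macrophages 5 fell and 1 rose, with a median of -0.59 that was -0.90 without CIA c. Retnla, a secreted product of alternative activation in mouse, had 0.175, 6.63 and 1.08 CPM in CIA and 63.8 and 39.5 CPM in sham (-4.30 ± 1.01, adjusted p = 0.0319). Folr2, a folate receptor of resident macrophages, had 10.6, 12.8 and 35.2 CPM against 68.0 and 66.2 CPM (-1.78 ± 0.49, adjusted p = 0.0453). Ccl24, Mgl2 and Pf4 were the other 3 that fell. The scavenger receptor Cd163 had 20.7, 52.0 and 86.2 CPM against 131 and 120 CPM (adjusted p = 0.146), and Lyve1, of resident macrophages and lymphatic vessels, 4.31, 24.7 and 43.3 CPM against 139 and 139 CPM (adjusted p = 0.129). In Retnla, Cd163, Lyve1 and Folr2 CIA a was the lowest library and no CIA library reached sham. The marker that rose was the anti-inflammatory cytokine Il10, with 26, 10 and 8 counts in CIA and 0 in both sham libraries, at least 5.16-fold higher by the same floor. This list does not hold Arg1, which rose (211, 2009 and 437 against 1 and 4 counts) and was counted with the monocyte and neutrophil markers.

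Fibroblast markers did not move as one, with 3 of 26 called higher, 0 lower and a median of 0.10. Called or not, 9 of the 26 were higher and 7 lower without overlap of the groups, beside 27.5% and 27.7% of all genes. The genes that rose were Cdh11, the cadherin that binds synovial fibroblasts to each other, with 145, 196 and 152 CPM in CIA and 40.9 and 35.2 CPM in sham (2.11 ± 0.42, adjusted p = 0.0228), the sublining collagen gene Col15a1 (1.46 ± 0.34, adjusted p = 0.0313) and the growth factor receptor Pdgfra (0.97 ± 0.25, adjusted p = 0.0383). Prg4 had 8541, 8275 and 17618 CPM in CIA and 15194 and 20707 CPM in sham (adjusted p = 0.375). CIA c stood between the sham libraries, and CIA a and b were at about equal, lower levels. The sublining gene Dpt was below both sham libraries in each CIA library, though not called (-1.53 ± 0.44, adjusted p = 0.0514).

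Of 32 fibrillar and network collagen genes 6 rose and 0 fell, and the median was 0.98. Col12a1, a fibril-associated collagen, had 798, 462 and 267 CPM in CIA and 31.5 and 38.2 CPM in sham (3.87 ± 0.85, adjusted p = 0.0272). Col8a1, of vessel and basement matrix, had 146, 109 and 136 CPM against 41.2 and 46.8 CPM (1.57 ± 0.29, adjusted p = 0.0200), and Col24a1, a minor fibrillar collagen, rose by 2.72 ± 0.73 (adjusted p = 0.0437). The abundant Col1a1 had 12334, 8742 and 7770 CPM against 1780 and 2006 CPM (adjusted p = 0.0925) and Col3a1 22438, 12881 and 17088 CPM against 5060 and 5382 CPM (adjusted p = 0.0895). Per length, in TPM, Col3a1 reached 4896 to 7369 in CIA and 1602 and 1667 in sham, and Col5a2 566 to 818 and 164 and 161. The groups were far apart for both abundant collagens although neither passed. Of 24 genes that crosslink and hydroxylate collagen 3 rose, Lox, with 2039, 645 and 667 CPM against 184 and 195 CPM (2.56 ± 0.70, adjusted p = 0.0445), Loxl2 (1.6 ± 0.37, adjusted p = 0.0306) and the procollagen protease Tll1 (1.73 ± 0.27, adjusted p = 0.0185).

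Among proteases of the ADAMTS family 6 of 20 genes rose and 0 fell (median 0.77). Adamts4, an aggrecanase that cuts the main cartilage proteoglycan, had 158, 34.1 and 131 CPM in CIA and 5.72 and 6.36 CPM in sham (4.15 ± 0.98, adjusted p = 0.0319). Adamts12, which cleaves cartilage oligomeric matrix protein, had 140, 103 and 121 CPM against 28.3 and 33.8 CPM (1.97 ± 0.28, adjusted p = 0.0173). Adamts9 (1.95 ± 0.34, adjusted p = 0.0185), Adamts1 (1.91 ± 0.39, adjusted p = 0.0233) and Adamts8 (2 ± 0.48, adjusted p = 0.0331) rose too, and CIA b was lowest of the CIA libraries for Adamts1, Adamts4, Adamts9 and Adamts12. The low Adamts17 rose as well (4.15 ± 1.02, adjusted p = 0.0348) and was highest in CIA b, with 0.931, 6.39 and 2.04 CPM against 0.107 and 0.234 CPM. Adamts5 had 219, 268 and 336 CPM against 258 and 334 CPM and was not called (-0.11 ± 0.27, adjusted p = 0.807).

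Of 21 metalloproteinases and their inhibitors 0 rose and 1 fell, while 16 had a log2 fold change above 0. Mmp3, which degrades proteoglycan and activates other proteases, had 2013, 800 and 773 CPM in CIA and 66.2 and 62.4 CPM in sham (adjusted p = 0.123). Mmp13, a collagenase of cartilage, had 487, 789 and 241 CPM against 31.9 and 19.4 CPM (adjusted p = 0.0669). The groups did not overlap for either gene, nor for the gelatinase Mmp2 (adjusted p = 0.0588) or the membrane-bound Mmp14 (adjusted p = 0.125). The SE of Mmp3 was 1.68 around a log2 fold change of 4.22, in a fit that shares its spread with the regular-diet libraries, where Mmp3 ranged from 12.3 to 1609 CPM in CIA. The inhibitor Timp4, known from heart and fat, fell from 399 and 484 CPM to 12.6, 94.7 and 56.5 CPM (-3.02 ± 0.79, adjusted p = 0.0408).

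Other matrix genes rose and fell by name. Thbs1, an adhesive activator of TGF-beta, had 194, 272 and 182 CPM in CIA and 62.7 and 23.7 CPM in sham (2.32 ± 0.49, adjusted p = 0.0250). Ccn4, a Wnt-induced matricellular gene, had 120, 52.2 and 39.4 CPM against 6.14 and 5.02 CPM (3.66 ± 0.91, adjusted p = 0.0366), and these were the 2 called genes of 24 matricellular genes, both higher. Of 28 small leucine-rich and elastic fibre genes Fbn1 (1.52 ± 0.41, adjusted p = 0.0439) and Emilin2 (1.08 ± 0.28, adjusted p = 0.0404) rose while Podn and Efemp1 (-1.34 ± 0.35, adjusted p = 0.0421) fell.

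Growth factor ligands held calls in both directions. In the TGF-beta superfamily 1 of 28 genes tested was called higher and 2 lower, beside 5.06% and 5.75% of all genes. Inhba, which encodes the subunit of activin A, had 325, 89.0 and 139 CPM in CIA and 21.1 and 24.1 CPM in sham (3.03 ± 0.74, adjusted p = 0.0348). Its relative Inhbb, the subunit of activin B, had 40.4, 48.0 and 66.3 CPM against 159 and 167 CPM (-1.66 ± 0.36, adjusted p = 0.0264), so both activin subunits moved in opposite directions. Gdf5, a joint-forming bone morphogenetic protein, fell (-2.82 ± 0.63, adjusted p = 0.0287). Of 24 Wnt ligands and regulators 3 fell, Sfrp5, Wnt11 (-1.63 ± 0.35, adjusted p = 0.0262) and Wnt6 (-1.92 ± 0.51, adjusted p = 0.0420), and 0 rose. Among 26 EGF, FGF and PDGF family ligands, Hgf (1.5 ± 0.27, adjusted p = 0.0194), the EGF receptor ligand Ereg (2.70 ± 0.61, adjusted p = 0.0287) and the neuregulin Nrg1 (138 counts in all CIA libraries and 9 in both sham libraries, adjusted p = 0.0488) rose. The fat-derived Nrg4 (-2.63 ± 0.57, adjusted p = 0.0263) and Fgf21 (-2.08 ± 0.57, adjusted p = 0.0449) fell.

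Bone and cartilage genes differed widely between the CIA libraries. Of 20 osteoclast genes only Ctsk was called, with 1286, 608 and 542 CPM in CIA and 238 and 228 CPM in sham (1.80 ± 0.49, adjusted p = 0.0449), and the list median of 1.66 was 0.89 without CIA a. Tnfsf11, the osteoclast-inducing cytokine RANKL, had 61.2, 10.2 and 14.8 CPM against 0.801 and 0.526 CPM (adjusted p = 0.0653). Runx2, the bone-forming transcription factor, had 23.2, 34.4 and 18.6 CPM against 6.84 and 2.80 CPM (2.39 ± 0.63, adjusted p = 0.0420). Each CIA library was above both sham libraries in these 3 genes. Of 19 chondrocyte markers 0 were called and the median was -0.04, with medians by library of -2.54, 0.19 and 0.45 in CIA a, b and c. Col2a1, the collagen of cartilage, had 0.291, 100 and 200 CPM against 140 and 153 CPM (adjusted p = 0.847). The matrix gene Acan had 34, 193 and 128 CPM in CIA and 65.2 and 86.2 CPM in sham, and Comp had 385, 732 and 1383 CPM against 2119 and 2359 CPM. These markers were lowest in CIA a, to unequal degrees. In CIA b and c Acan stood above both sham libraries and Comp below them. What part the amount of cartilage and bone in each dissection had was not tested.

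Called members of the vessel and nerve lists are set beside 5.06% and 5.75% of all genes called higher and lower. Of 31 endothelial genes Nrp2, a co-receptor of lymphatic growth factors, rose, with 427, 176 and 145 CPM in CIA and 58.2 and 61.3 CPM in sham (2.06 ± 0.48, adjusted p = 0.0319). Vegfb had 12.5, 25.1 and 27.4 CPM against 85.3 and 106 CPM (-2.14 ± 0.43, adjusted p = 0.0226) and the Notch ligand Dll4 fell by 0.86 on the log2 scale (SE 0.24, adjusted p = 0.0471). The pericyte gene Higd1b (-1.15 ± 0.31, adjusted p = 0.0438) and the neurotrophin Ntf3 (-2.67 ± 0.56, adjusted p = 0.0257) were the called genes of 13 pericyte and 17 nerve genes. The nerve list had a median of -0.73. Without overlap of the groups, 10 of its 17 genes were lower and 4 higher, beside 27.7% and 27.5% of all genes.

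Hormone, transcription factor and lipid genes of fat cells were among those that fell. The hormone gene Lep, which encodes leptin, had 17.7, 51.1 and 62.3 CPM in CIA and 437 and 472 CPM in sham (-3.38 ± 0.68, adjusted p = 0.0228). Adipoq had 81.3, 415 and 380 CPM against 1298 and 1545 CPM (-2.28 ± 0.64, adjusted p = 0.0487). For both, CIA a was lowest and no CIA library overlapped sham. Of 18 adipokines and receptors 6 fell and 0 rose (median -0.99), with Rarres2, which encodes the chemoattractant chemerin, at 168, 143 and 262 CPM against 799 and 902 CPM (-2.15 ± 0.35, adjusted p = 0.0185), and the retinol carrier Rbp4 at 29.7, 35.0 and 53.6 CPM against 193 and 217 CPM (-2.38 ± 0.49, adjusted p = 0.0236). Of 20 adipocyte transcription factors 3 fell and 0 rose, namely Pparg, the master factor of fat cells, with 26.5, 67.5 and 58.6 CPM against 198 and 224 CPM (-2.05 ± 0.47, adjusted p = 0.0310), Cebpa (-1.94 ± 0.46, adjusted p = 0.0329) and the oxysterol receptor Nr1h3 (-1.41 ± 0.33, adjusted p = 0.0313).

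Lipid storage genes were called lower at several steps. Of 18 triglyceride assembly genes 5 fell and 1 rose (median -1.08). Dgat2, which adds the last acyl chain, had 74.1, 151 and 142 CPM in CIA and 736 and 814 CPM in sham (-2.66 ± 0.49, adjusted p = 0.0194). Agpat2 (-2.2 ± 0.44, adjusted p = 0.0228), Mogat1 (-3.03 ± 0.64, adjusted p = 0.0250), Pnpla3 (-2.53 ± 0.64, adjusted p = 0.0370) and the seipin gene Bscl2 (-1.23 ± 0.29, adjusted p = 0.0331) fell with it. Glycerol kinase, Gk, went the other way, with 25.1, 36.8 and 18.3 CPM against 8.07 and 5.84 CPM (1.94 ± 0.32, adjusted p = 0.0185). Of 18 lipolysis and lipid droplet genes 3 fell, the lipase inhibitor G0s2, with 38.8, 59.5 and 70.3 CPM against 297 and 306 CPM (-2.42 ± 0.34, adjusted p = 0.0155), the droplet protein Cidec (-2.18 ± 0.61, adjusted p = 0.0484) and the lipase Lipe (-2.02 ± 0.57, adjusted p = 0.0486). The medians of this list by library were -2.94, -0.83 and -1.29 relative to the sham mean in CIA a, b and c. In the uptake list of 19 genes the binding protein Fabp3 fell (-1.80 ± 0.45, adjusted p = 0.0363) and Acsl4, which activates arachidonate, rose (1.44 ± 0.24, adjusted p = 0.0185). Of 21 lipogenic genes only Fads3 was called (-1.25 ± 0.35, adjusted p = 0.0483), and the median of -0.66 was -0.17 without CIA a.

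**Figure D3:**
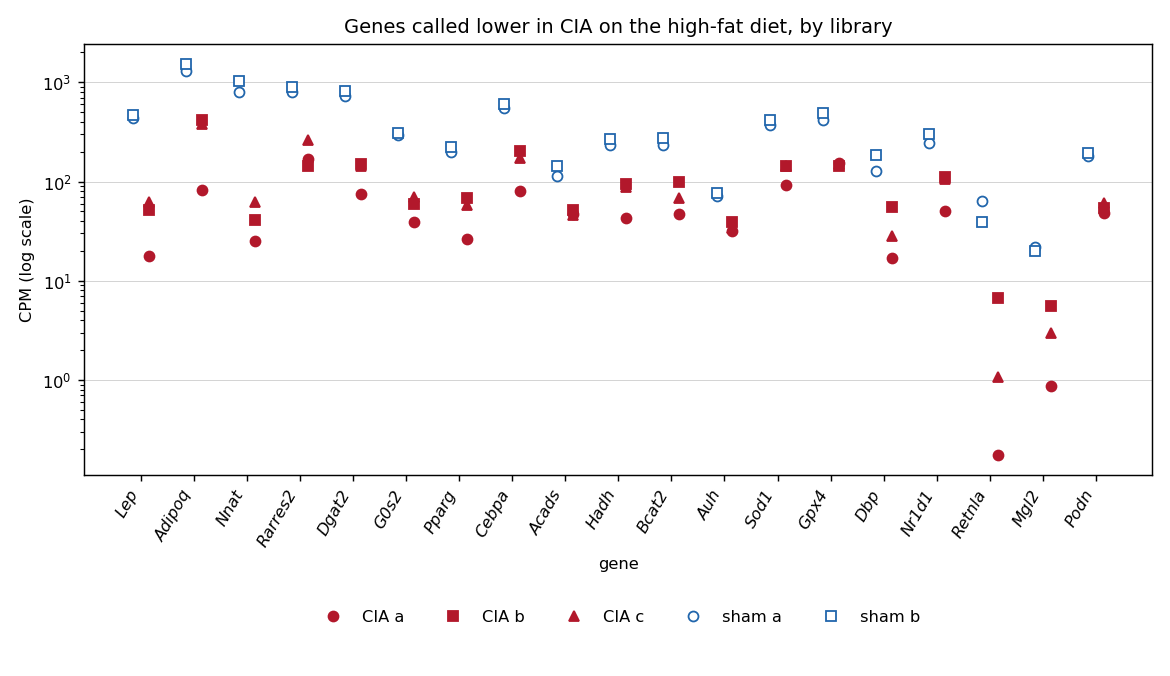
CPM on a log scale of 19 genes called lower, with the 3 CIA libraries as filled and the 2 sham libraries as open symbols. Each CIA symbol lies below both sham symbols of its gene, as for every gene called lower. CIA a is lowest for the fat genes Lep, Adipoq, Dgat2 and Pparg, while Podn, Auh and Acads are almost level across CIA.

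Of 23 genes that degrade the branched-chain amino acids 12 fell and 0 rose, 22 of 23 had a log2 fold change below 0, and the median was -1.07. The medians by library were -1.41, -0.88 and -1.09 in CIA a, b and c. Bcat2, the mitochondrial transaminase that starts the pathway, had 46.8, 99.6 and 67.5 CPM in CIA and 234 and 275 CPM in sham (-1.84 ± 0.34, adjusted p = 0.0194). Bckdha, of the rate-limiting ketoacid dehydrogenase, had 40.4, 74.2 and 62.6 CPM against 152 and 181 CPM (-1.5 ± 0.35, adjusted p = 0.0319). Later steps fell too, with Auh of the leucine branch at 31.5, 38.7 and 34.2 CPM against 70.7 and 75.9 CPM (-1.07 ± 0.17, adjusted p = 0.0185). Acad8 of the valine branch (-0.76 ± 0.16, adjusted p = 0.0235), and Pccb (-1.47 ± 0.37, adjusted p = 0.0371) and Mcee (-1.29 ± 0.28, adjusted p = 0.0263), which carry propionyl-CoA on, were lower. Each CIA library was below both sham libraries in these 6 genes.

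Of 23 genes of the carnitine shuttle and fatty acid oxidation 7 fell and 0 rose, with a median of -0.92. Acads, the short-chain dehydrogenase, had 46.9, 51.4 and 45.6 CPM in CIA and 115 and 142 CPM in sham (-1.42 ± 0.33, adjusted p = 0.0307). The electron carrier Etfb had 92.2, 97.7 and 83.2 CPM against 242 and 245 CPM (-1.42 ± 0.27, adjusted p = 0.0209). Both were almost level among the CIA libraries. Acadm (-1.42 ± 0.38, adjusted p = 0.0432), Hadh (-1.73 ± 0.45, adjusted p = 0.0409), Eci1 (-1.47 ± 0.35, adjusted p = 0.0319) and peroxisomal Acaa1a (-0.89 ± 0.18, adjusted p = 0.0224) fell with them. Nuclear genes of oxidative phosphorylation had a log2 fold change below 0 in 31 of 33 members (median -0.69), and 3 were called, Ndufs3 (-0.91 ± 0.20, adjusted p = 0.0264), Ndufb9 (-1.22 ± 0.33, adjusted p = 0.0437) and Cox4i1 (-0.98 ± 0.27, adjusted p = 0.0483). In the citrate cycle, with 31 genes tested, Idh2 fell (-1.18 ± 0.23, adjusted p = 0.0224) and Pdk3, a kinase that shuts pyruvate entry, rose (0.73 ± 0.20, adjusted p = 0.0442). Of 25 glycolytic genes only Ldhb was called, lower (-1.43 ± 0.31, adjusted p = 0.0272), while the list median was 0.45, with 14 genes above 0.

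Insulin signalling held calls in both directions among 20 genes. The insulin-driven glucose transporter Slc2a4 had 9.37, 51.4 and 52.0 CPM in CIA and 172 and 211 CPM in sham (-2.35 ± 0.65, adjusted p = 0.0476), and the kinase Akt2 fell (-1.45 ± 0.34, adjusted p = 0.0324). The inhibitors of the pathway fell or rose one by one, with Grb14 and Trib3 (-2.34 ± 0.39, adjusted p = 0.0185) lower and Grb10 higher (1.17 ± 0.30, adjusted p = 0.0399), as was Tbc1d1, which holds the transporter inside (0.94 ± 0.19, adjusted p = 0.0236). In brown and beige fat genes, 16 tested, the channels Kcnk3 (-1.62 ± 0.42, adjusted p = 0.0408) and Otop1 (-1.80 ± 0.47, adjusted p = 0.0400) fell and Gk rose.

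Of 24 genes of cholesterol synthesis and handling 6 fell and 2 rose, with a median of -0.32 that was -0.07 without CIA b. By library the median lay at 0.17, -0.90 and -0.37 relative to the sham mean in CIA a, b and c. Called lower were the synthesis enzymes Mvk (-1.07 ± 0.25, adjusted p = 0.0319), Pmvk, with 17.8, 18.1 and 17.5 CPM in CIA and 40.4 and 49.9 CPM in sham (-1.34 ± 0.32, adjusted p = 0.0335), Fdft1 (-1.51 ± 0.37, adjusted p = 0.0348) and Sc5d (-1.39 ± 0.30, adjusted p = 0.0262). The sterol sensor Insig1 was called lower too (-1.42 ± 0.32, adjusted p = 0.0293). The cholesterol exporter Abcg1 had 86.2, 101 and 50 CPM against 24.6 and 20.3 CPM (1.82 ± 0.41, adjusted p = 0.0303). Pmvk and Abcg1 thus moved in opposite directions in every CIA library. In arginine metabolism the transporter Slc7a2, with 276, 173 and 202 CPM against 57.6 and 71.5 CPM (1.75 ± 0.40, adjusted p = 0.0296), rose with Arg1, and Asl, which makes arginine, fell (-0.83 ± 0.19, adjusted p = 0.0301). Of 23 antioxidant genes 4 were called lower and 0 higher, but the median was -0.01, with 11 members above 0 and 12 below. Superoxide dismutase Sod1 had 91.4, 144 and 145 CPM against 375 and 413 CPM (-1.63 ± 0.37, adjusted p = 0.0298). The lipid peroxide reductase Gpx4 had 152, 143 and 151 CPM against 417 and 491 CPM (-1.61 ± 0.33, adjusted p = 0.0241), and Gsta4 fell too (-2.74 ± 0.57, adjusted p = 0.0241).

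Of 19 circadian clock genes 4 fell and 0 rose (median -0.61). Dbp, whose transcription follows the clock directly, had 16.8, 55.8 and 28.1 CPM in CIA and 129 and 186 CPM in sham (-2.23 ± 0.52, adjusted p = 0.0313). Its relative Hlf (-1.98 ± 0.48, adjusted p = 0.0334), the repressor Nr1d1 (-1.59 ± 0.41, adjusted p = 0.0392) and Cry2 (-1.58 ± 0.37, adjusted p = 0.0319) fell too. The median was -0.38 without CIA c and -1.05 without sham b. The hour of tissue collection is not given in the sources used here, and its part was not tested. In the unfolded protein response, with 25 genes tested, the stress factor Ddit3 had 19.0, 25.9 and 20.8 CPM against 58.1 and 62.0 CPM (-1.45 ± 0.23, adjusted p = 0.0185), Trib3 and Herpud1 (-0.73 ± 0.20, adjusted p = 0.0468) fell, and the sensor Ern1 rose (1.15 ± 0.25, adjusted p = 0.0272).

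Cell cycle genes had a log2 fold change above 0 in 30 of 32 members and a median of 1.34, but the 1 called gene was the inhibitor Cdkn2b, which fell from 16.7 and 18.3 CPM in sham to 4.95, 5.85 and 3.66 CPM in CIA (-1.86 ± 0.26, adjusted p = 0.0155). The list stood 2.80 above the sham mean in CIA a and the sham libraries lay at 1.11 and -1.11, so its median was 0.37 without CIA a and 2.77 without sham a. Of 30 ribosomal protein genes 0 were called (median -0.20) and of 14 heat shock genes 1, Hspb1, lower (-1.22 ± 0.27, adjusted p = 0.0287). Muscle genes were below 0 in 22 of 22 members (median -2.39, and -1.31 without sham b) with 0 called. Of 19 erythroid and marrow genes the receptor Epor was called, lower (-1.63 ± 0.44, adjusted p = 0.0437), while the list median of -1.89 became 3.11 without sham a.

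Transcription factors, as annotated in the deposited table, made up 72 of the 753 genes that rose (9.56%), 33 of the 857 that fell (3.85%) and 1191 of all genes tested (8%). Hif1a, the oxygen-regulated factor, had 682, 343 and 392 CPM in CIA and 103 and 101 CPM in sham (2.21 ± 0.45, adjusted p = 0.0236). It was the 1 called gene of 20 in the hypoxia list. Zbed6 had 45.5, 86.3 and 92.5 CPM against 8.07 and 8.53 CPM (3.17 ± 0.80, adjusted p = 0.0380), and Mxd1, an antagonist of MYC, had 147, 426 and 58.2 CPM against 39.5 and 21.5 CPM (2.78 ± 0.77, adjusted p = 0.0463). No CIA library overlapped sham in these 3 genes, as in every called gene, and a different CIA library was highest in each. Atf5, a factor of the stress response, fell from 354 and 404 CPM to 64.4, 88.0 and 111 CPM (-2.11 ± 0.28, adjusted p = 0.0155). Twist2, of mesenchymal cells, fell from 20.3 and 23.8 CPM to 6.75, 5.18 and 6.61 CPM (-1.83 ± 0.30, adjusted p = 0.0185).

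The 3 CIA libraries were not alike. The first principal component of the 5 libraries held 61.5% of the variance and placed CIA a at 95.5, b at 34.7 and c at 12.1, with sham at -58 and -84.3. The second held 23.8% and set CIA a, at 52.6, against b, at -63.7. Of the genes called lower, CIA a was the lowest library for 532 (62.1%), b for 208 (24.3%) and c for 117 (13.7%). Of those called higher, CIA a was the highest for 321 (42.6%), b for 356 (47.3%) and c for 76 (10.1%). Of the 3 CIA libraries, CIA a had the highest medians of osteoclast and cell cycle genes and the lowest of lipolysis, chondrocyte and interferon gamma GTPase genes, and CIA b the highest of monocyte and neutrophil markers. Without CIA b 355 genes were called, of which 338 were among the 1610.

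Finally the CIA effect on the high-fat diet was set against that on the regular diet, from 3 CIA and 3 sham libraries, by testing the difference of both effects in edgeR. At an adjusted p under 0.05 the count was 0 of 14892 genes (0%). Without adjustment 635 had a p under 0.05, where chance gives 745, and DESeq2 called 21. The first number moved with the library left out, from 204 without high-fat sham b to 2420 without regular-diet CIA b, which stood apart from its group, while the adjusted count was 0 in edgeR without any 1 of the 11 libraries. Of the genes called on the high-fat diet 738 of the 753 higher (98.0%) and 839 of the 857 lower (97.9%) had a regular-diet log2 fold change of the same sign, against 55.3% of all genes above 0 and 44.7% below. Without regular-diet CIA b 717 (95.2%) and 796 (92.9%) had the same sign. Each fold change has its own sham group, but the fit shares 1 estimate of the spread.

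Point estimates of named genes ranged from close to far apart between the diets, and a p that misses the threshold does not show that the effects are alike. Ifi44 rose by 2.41 ± 0.35 on the high-fat and 2.27 ± 0.30 on the regular diet, Col12a1 by 3.87 ± 0.85 and 3.78 ± 0.72, and Tgtp1 by 2.75 ± 0.64 and 3.18 ± 0.55. On the regular diet Col12a1 had 38.3, 195 and 34.7 CPM in CIA a, b and c and 4.37, 8 and 7.08 CPM in sham. CIA b of that diet thus stood far above the other CIA libraries for this gene. Lep had -3.38 ± 0.68 on the high-fat and -0.30 ± 0.59 on the regular diet, a difference of -3.08 ± 0.89 (adjusted p = 0.989). Its sham levels were 437 and 472 CPM on the high-fat and 150 to 238 CPM on the regular diet. Dgat2 differed by -2.59 ± 0.65 (adjusted p = 0.989), Trib3 by -2.69 ± 0.52 (adjusted p = 0.864), Grb14 by -2.06 ± 0.39 (adjusted p = 0.864), Podn by -1.29 ± 0.22 (adjusted p = 0.864) and Slc12a2 by 0.96 ± 0.19 (adjusted p = 0.864). Medians of the fat lists were nearer 0 on the regular diet, at -0.35 for adipokines and -0.38 for lipolysis, and those of the GTPases and of oxidative phosphorylation were 2.2 and -0.76 there, with no test of these medians.

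**Figure D4:**
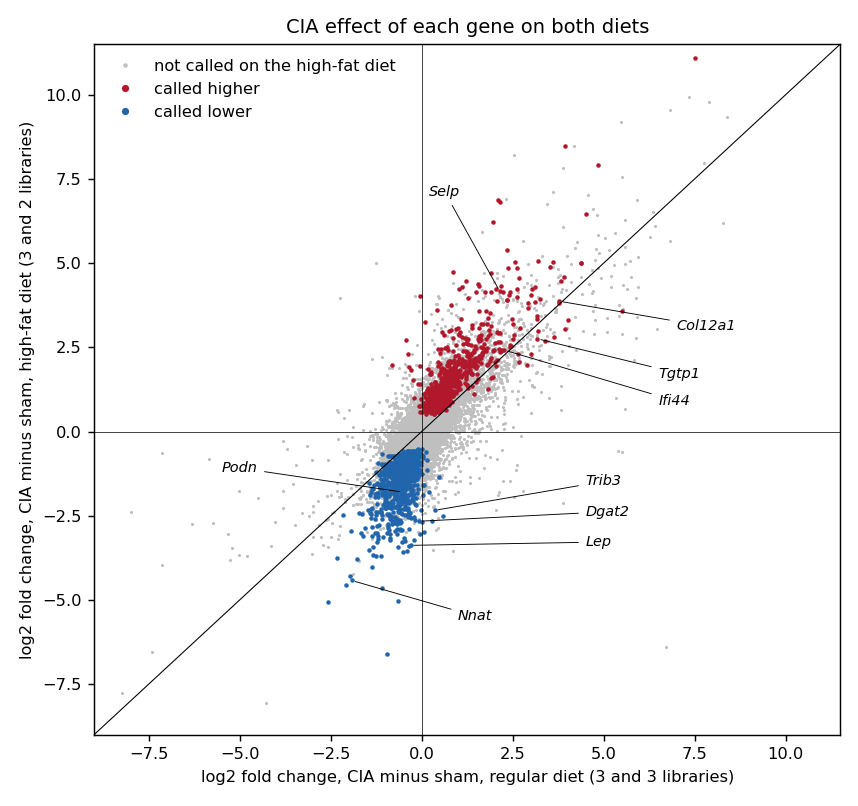
Log2 fold change of CIA minus sham for each gene tested, on the regular diet (horizontal axis) and on the high-fat diet (vertical axis), with genes called on the high-fat diet in red (higher) and blue (lower) and a line of equality. Most called genes keep their sign, those labelled Col12a1, Tgtp1 and Ifi44 lie near the line, and Lep, Dgat2 and Trib3 lie below it near a regular-diet change of 0.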

How the data were processed

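Per the labels' protocols, synovial RNA was taken up in Trizol and sequenced after library preparation with BGI's own kit. No source says whether that kit is stranded, and reads of overlapping antisense genes cannot be told apart. In 1 table of 18804 genes the authors deposited, per the file headers, estimated counts (expected counts, 11.98% not whole at a tolerance of 0.001), FPKM and TPM for each library. Log2 fold changes and q-values of the authors' own DESeq2 comparisons are deposited with them. GRCm38.p6, RSEM 1.2.12, Bowtie2 2.2.5 and DESeq2 1.4.5 are named, without roles, in the submitters' processing notes. The table writes gene positions with chromosome accessions of another version, so none are given. 

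Expected counts were rounded. No count in any library was found for 507 genes, and edgeR's filterByExpr kept 14892, scaled by TMM and fitted by glmQLFit (robust) with 1 mean per group over all 11 libraries, because high-fat sham has 2. The call was a two-sided p, adjusted by Benjamini-Hochberg, under 0.05. SE was taken from F, as the size of the log2 fold change over the root of F. CPM uses TMM-scaled totals, and log2 CPM a prior count of 2. Replicates differed by more than counting noise (chi-square per degree of freedom 18.35 to 265.8), and the common biological coefficient of variation was 0.349. Counting intervals and floors of 3 counts cover counting error only. The versions were edgeR 4.0.16, DESeq2 1.42.0 and limma 3.58.1 in R 4.3.3, and numpy 2.4.6 and pandas 2.3.3 in Python 3.11.15.

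The comparison, the 64 lists (1342 genes, 1285 tested, 8 matched by an older symbol) and the genes named were chosen with earlier results of these data known. Named were called genes with the smallest p, the largest log2 fold changes and the largest CPM differences, transcription factors, up to 6 called members of each list by p and up to 3 abundant members not called, and a few arthritis genes as values. Genes named by p, log2 fold change, CPM difference or as transcription factors also had to have no overlap between CIA and sham libraries. Such separation of named called genes was thus set by how they were chosen. Not all that qualify are named, and some are not reported here. The fit was also run on counts simulated with the same spread for every gene and library. That setting does not cover libraries that stand apart from their group. The labels do not say that replicate letters pair libraries, and the fit did not pair them. Correlations of same-letter deviations from the group mean ran from -0.426 to 0.463, which cannot settle pairing with so few libraries per group.

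The alternatives were RLE and upper-quartile scaling, 2 other filters on low counts (none, or a CPM of 1 or more in 3 libraries), the 20 most abundant genes left out, a fold threshold, the replicate block, the 5 libraries alone, DESeq2, limma voom, limma on log2(FPKM + 1) and log2(FPKM + 0.1), and leaving out each library.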

Additional observations from a re-analysis of the deposited data

How the results depend on the processing

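The count of 1610 genes called changed by less than 1.5 times with RLE or upper-quartile scaling, both filters, limma voom, limma on FPKM, the fold threshold and without the 20 most abundant genes, from 1082 to 1924. It was 3254 with DESeq2, 492 in a fit of the 5 high-fat libraries only, and 776 with the replicate letter as a replicate block, a pairing that the labels do not state. Leaving out 1 library at a time it ranged from 0, without either high-fat sham library, to 3738, without regular-diet CIA b. It was 792 without regular-diet CIA a, and 529 and 624 without regular-diet sham b and c. Where a sham library is left out, the lone one is assumed to vary like the other groups. The cause of these moves was not tested. The count for the difference between both diets was 0 under the alternatives run except DESeq2, with 21.

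Of the 207 called genes named, 198 stayed called with RLE scaling, 200 with upper-quartile scaling, 205 with DESeq2, 123 with the replicate block and 78 in the 5 high-fat libraries only. Leaving out 1 library, 56 of 206 stayed called without high-fat CIA b, 83 and 95 without regular-diet sham b and c, and 0 without either high-fat sham library. None of these called genes changed sign under the settings in this paragraph. Among genes not called, Mpo moved from -0.04 to 0.64 and Acan from 0.64 to -0.06 with the replicate block, and Mpo ran from -3.30 to 6.70 when single libraries were left out. Col2a1, at -0.55, ran from -1.54 to 0.03 when they were left out and was -3.01 with limma voom.

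With 2 sham and 3 CIA libraries, precision rests on few samples and not on depth.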
